A study of Mus musculus with 12 samples.

Results

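The genes described here are 58 mouse genes that encode secreted plasma proteins made by hepatocytes, out of 21853 protein-coding genes with a coding transcript on chromosomes 1 to 19, X and Y. The genes were chosen by name, with no measured value in their rule, and comprise 10 carrier and transport protein genes, 12 apolipoprotein genes, 11 coagulation genes, 8 anticoagulant and fibrinolysis genes, 9 complement genes, 4 acute phase genes and 4 genes of the inter-alpha inhibitor family. All 58 were found in the annotation. For each gene, the promoter was the region within 1 kb on either side of any start of a coding transcript, and the window was the gene body with 10 kb on either side, in GENCODE mouse release 21 on the GRCm38 (mm10) assembly.

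Hepatocytes secrete most of the proteins of blood plasma, among them albumin, the lipoprotein apolipoproteins, the clotting factors and their inhibitors, and the complement proteins. Their genes are classic targets of the liver-enriched transcription factors HNF1, HNF4, C/EBP and FOXA, and several respond to inflammation through STAT and NF-kB factors. LSD1, encoded by Kdm1a, is a demethylase that removes methyl groups from lysine 4 and lysine 9 of histone H3. H3K4me2, dimethylated lysine 4, is a mark of active promoters and enhancers, and in active genes it commonly extends from the promoter into the first part of the transcribed region.

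The study measured where LSD1 and H3K4me2 lie in mouse liver by ChIP-seq, in which DNA pulled down with an antibody is sequenced and stretches enriched over a control are reported as peaks. LSD1 was profiled in wild-type C57BL/6 liver, and H3K4me2 in the liver of C57BL/6 mice that were either GFP controls or lacked LSD1 in the liver (LSD1-LKO). The 12 samples were 6 ChIP libraries, 2 for each of these 3 groups, and 6 control libraries. The deposited data are 3 peak lists, 1 per group, each holding only the peaks found in both ChIP libraries of the group.

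Both H3K4me2 groups carried floxed Lsd1 alleles (LSD1 fl/fl). According to the methods, adult LSD1 fl/fl mice received AAV8-TBG-Cre to give LSD1-LKO mice or AAV8-TBG-GFP to give controls. The TBG promoter is active in hepatocytes, so that Cre was directed to hepatocytes and other liver cells kept the intact alleles. The methods describe a high-fat diet after injection, but neither the diet nor the age of the ChIP-seq animals is in the labels. The 6 control libraries are input made with no antibody according to the labels and IgG ChIP according to the methods. Whether the 2 libraries of a group came from separate mice is not stated, and the spread between them may therefore be technical.

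The LSD1 list held 14584 entries, the control H3K4me2 list 43891 and the LSD1-LKO list 50675. Reads were not part of the lists and sequencing depth could not be derived, so a missing peak means only that none was shared by both libraries. Each entry pairs a peak of one library, called first-listed here, with its partner in the other, the second-listed library. The H3K4me2 peaks of the first-listed libraries covered 38.9 Mb in control and 38.0 Mb in LSD1-LKO, and those of the second-listed libraries 50.8 and 57.9 Mb. The first-listed and second-listed libraries of both genotypes also differed in how their peaks were named, and the part of this difference in the results was not tested.

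The tissue label was checked with marker genes outside the 58. All 10 hepatocyte marker genes had H3K4me2 in their windows in both genotypes, with promoter peaks at 8 in control and 9 in LSD1-LKO. None of 6 Kupffer cell, 6 endothelial or 5 lymphocyte marker genes had a control promoter peak, against 1 of 6 stellate cell and 3 of 5 cholangiocyte marker genes. In LSD1-LKO liver, promoter peaks lay at 1 endothelial, 2 stellate and 2 cholangiocyte marker genes and at no Kupffer cell or lymphocyte marker. Endothelial windows were marked at 5 of 6 genes in control and 6 of 6 in LSD1-LKO, and whole liver contains these cells. LSD1 was not profiled in LSD1-LKO liver, so its loss cannot be checked in these lists. At Kdm1a itself, the promoter had no control H3K4me2 peak and 2 LSD1-LKO peaks, with peak lengths of 0 and 0 bp in control and 910 and 1805 bp in LSD1-LKO.

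The plasma protein genes share CpG-poor promoters, a feature their selection did not use. Over 1 kb centered on the 5′ end, the ratio of observed to expected CpG had a median of 0.21 at the 58 genes and 0.55 over all protein-coding genes. The ratio was below 0.6 at 57 of the 58 genes, or 98.3%, as against 54.1% of all genes and 31.2% of the genes with H3K4me2 at the promoter. Apoh, the gene of a phospholipid-binding plasma protein, was the exception with a ratio of 0.74, measured at the far 5′ end of a gene model 71043 bp long. CpG-poor promoters were not particular to the 58 genes. The ratio was below 0.6 at 54 of 57 other plasma protein genes described below and at all 10 hepatocyte marker genes. It was also below 0.6 at all 6 Kupffer cell, all 5 lymphocyte, 5 of 6 endothelial, 3 of 6 stellate cell and 4 of 5 cholangiocyte marker genes.

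The sequences of several promoters show this feature directly. Shown first are Serpinf2, C8b, Vtn and Ambp, whose LSD1 promoter peaks ranked highest among genes with a promoter entry in RefSeq. These are followed by Apoc2 and Cp, the genes with the most H3K4me2 in control liver among those with an entry and without an LSD1 promoter peak, and by Alb, which was chosen after its values were seen. Each line gives 250 bases before the start and 50 from the start on, 5′ to 3′ on the gene's strand, from RefSeq on GRCm38.p6, with every CpG in capitals.
Serpinf2, chr11:75439452-75439751, minus strand: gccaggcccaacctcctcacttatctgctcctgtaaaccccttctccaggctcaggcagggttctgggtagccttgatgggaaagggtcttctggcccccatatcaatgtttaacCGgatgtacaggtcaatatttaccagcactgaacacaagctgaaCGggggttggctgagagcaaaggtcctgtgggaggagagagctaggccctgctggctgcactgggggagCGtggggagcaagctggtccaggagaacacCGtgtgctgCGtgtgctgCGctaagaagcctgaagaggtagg
C8b, chr4:104766067-104766366, plus strand: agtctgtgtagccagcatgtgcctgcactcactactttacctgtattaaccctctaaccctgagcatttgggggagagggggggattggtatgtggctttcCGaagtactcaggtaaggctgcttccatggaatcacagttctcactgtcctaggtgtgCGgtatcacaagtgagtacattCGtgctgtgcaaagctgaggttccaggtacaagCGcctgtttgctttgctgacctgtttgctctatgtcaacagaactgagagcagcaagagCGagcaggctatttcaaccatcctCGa
Vtn, chr11:78498870-78499169, plus strand: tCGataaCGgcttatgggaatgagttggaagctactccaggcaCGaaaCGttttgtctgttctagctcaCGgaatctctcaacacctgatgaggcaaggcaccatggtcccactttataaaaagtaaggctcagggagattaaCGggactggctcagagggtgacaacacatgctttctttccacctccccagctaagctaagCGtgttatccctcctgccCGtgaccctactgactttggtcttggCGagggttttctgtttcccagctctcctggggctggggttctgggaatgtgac
Ambp, chr4:63154123-63154422, minus strand: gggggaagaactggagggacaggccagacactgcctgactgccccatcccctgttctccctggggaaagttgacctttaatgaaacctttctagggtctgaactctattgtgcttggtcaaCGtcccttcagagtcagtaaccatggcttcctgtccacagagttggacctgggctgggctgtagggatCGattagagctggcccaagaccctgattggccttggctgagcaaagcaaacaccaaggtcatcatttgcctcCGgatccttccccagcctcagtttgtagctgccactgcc
Apoc2, chr7:19677892-19678191, minus strand: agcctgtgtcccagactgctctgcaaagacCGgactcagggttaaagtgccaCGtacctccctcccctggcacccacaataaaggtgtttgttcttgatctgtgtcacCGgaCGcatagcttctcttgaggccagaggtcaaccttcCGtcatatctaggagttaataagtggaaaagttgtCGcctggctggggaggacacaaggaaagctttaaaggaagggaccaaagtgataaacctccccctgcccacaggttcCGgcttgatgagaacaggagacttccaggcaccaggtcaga
Cp, chr3:19956804-19957103, plus strand: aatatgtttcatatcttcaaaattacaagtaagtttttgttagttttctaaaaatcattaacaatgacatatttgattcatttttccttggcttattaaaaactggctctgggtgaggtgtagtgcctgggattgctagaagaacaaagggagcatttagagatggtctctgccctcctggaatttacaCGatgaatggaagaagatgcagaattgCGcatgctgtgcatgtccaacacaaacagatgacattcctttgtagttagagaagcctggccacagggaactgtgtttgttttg
Alb, chr5:90460620-90460919, plus strand: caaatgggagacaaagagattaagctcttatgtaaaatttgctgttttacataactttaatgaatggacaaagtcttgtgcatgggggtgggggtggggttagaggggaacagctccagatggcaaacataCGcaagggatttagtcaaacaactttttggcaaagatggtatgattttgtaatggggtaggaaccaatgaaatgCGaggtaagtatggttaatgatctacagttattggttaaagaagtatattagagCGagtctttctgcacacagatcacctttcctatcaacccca

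These 7 stretches held between 2 CpGs (Cp) and 9 (Vtn). RefSeq promoter entries were matched to 45 of the 58 genes, and the CpG count per entry had a median of 4 at those genes and 14 over 16514 protein-coding genes. The first-listed LSD1 peak covered all 300 bases of the Vtn entry, 174 of Ambp, 123 of C8b, 105 of Serpinf2 and 102 of Alb. Apoc1, Apoc3, C4b, Cfb, Cfi, Hp, Kng1, Orm1, Plg, Proc, Serping1, Trf and Ttr had no entry in the table used.

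Motifs of the liver-enriched factors were searched in these entries on both strands as fixed letters. The HNF1 letters GTTAATNAT were found at 5 of 45 plasma protein genes (Afp, Alb, Cp, F13b and Fga), or 11.1%, and in 0.769% of all 16514 promoters. In Alb the match GTTAATGAT began 32 bases before the start on the gene's strand, and in Cp it began 197 bases before the start on the opposite strand. The FOXA letters TGTTTAC were found at 3 of 45 (6.67%, all promoters 2.96%), the STAT letters TTCCNGGAA at 2 (4.44%, all promoters 1.17%) and the ERR letters CAAAGGTCA at 1 (2.22%, all promoters 0.43%). TATAAA anywhere in the entry was found at 11 of 45 (24.4%, all promoters 12.9%). Within the stretch starting 40 to 20 bases before the start on the gene's strand, TATAAA was found at 2 genes, Crp and Fetub (4.44%, all promoters 2.78%). No match was found at the 45 genes for HNF4 (CAAAGTCCA, 0.448% of all promoters), C/EBP (TTGCGCAA, 0.23%), GABP (CCGGAAGT, 5.55%) or NF-kB (GGGANTTCC, 1.87%). These are matches of letters in a 300-base stretch and were not tested.

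LSD1 peaks lay near most plasma protein genes of wild-type liver. The window is larger than the promoter and includes it, so the window count cannot fall below the promoter count. An LSD1 peak overlapped the window of 48 of the 58 genes, or 82.8%. The share was 43.6% over all protein-coding genes and 57.6% over genes with an H3K4me2 peak in the window. It was 80% at the 10 hepatocyte marker genes and 75.4% at the 57 other plasma protein genes described below. A promoter peak was present at 24 of the 58, or 41.4%, beside 23.6% of all genes, 37.6% of genes with an H3K4me2 promoter peak, and 27.6% of those that also had a CpG ratio below 0.6. The promoter share was 20% at the hepatocyte marker genes and 31.6% at the other plasma protein genes. For 24 of the 58 genes LSD1 lay in the window but not at the promoter. The 10 genes with no LSD1 peak in the window were Afp, Apoh, Apom, C9, Cp, Crp, F13b, Hpx, Kng1 and Proc.

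Many of the 58 genes are neighbors and share windows, so they are not independent. Windows of 24 genes overlapped in 9 clusters, namely Apoc1-Apoc2-Apoc4-Apoe, Apoa1-Apoa4-Apoc3, Fga-Fgb-Fgg, Hrg-Ahsg-Fetub, Itih1-Itih3-Itih4, Afp-Alb, C8a-C8b, F7-F10 and Saa1-Saa2. The other 34 genes stood alone, giving 43 separate loci. The windows together spanned 2254 kb and held 87 distinct LSD1 peaks, of which 30 lay at a promoter of the 58 genes. By its center, 35 of the 87 peaks lay upstream of the gene, 20 in introns, 11 in exons and 21 downstream. With peaks and windows counted once for each gene, so that shared ones count repeatedly, there were 4.34 LSD1 peaks per 100 kb of window at the 58 genes, against 1.03 over all genes and 1.26 over all genes with H3K4me2 in the window. The density was 3.83 at the 10 hepatocyte marker genes and 3.28 at the 57 other plasma protein genes described below. A density above that of all genes was therefore not particular to the 58 genes. The windows of the 58 genes were the shorter ones, with a median of 31865 bp against 42627 bp for all genes with H3K4me2 in the window.

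LSD1 peaks differ in strength, and strength is given here as fold enrichment in the first-listed and second-listed library and as a percentile among all 14584 LSD1 entries by mean −log10 p-value. Plg, the gene of plasminogen, had the highest-ranking promoter peak of the 58 genes, at 4.30-fold and 5.58-fold and the 95.5 percentile. It was followed by Serpinf2, the gene of alpha2-antiplasmin, which inhibits plasmin, at 5.22-fold and 4.88-fold and the 93.9 percentile. C8b, the gene of a chain of complement component 8, reached 4.37-fold and 4.71-fold and the 89.8 percentile.

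LSD1 promoter peaks were present at 6 of the 8 anticoagulant and fibrinolysis genes, or 75%. The share was 23.6% over all genes and 37.6% over genes with an H3K4me2 promoter peak. Besides Plg and Serpinf2, these were Vtn, the gene of the adhesive protein vitronectin, at 3.80-fold and 4.66-fold and the 81.6 percentile, and Serpind1, the gene of the thrombin inhibitor heparin cofactor II, at 2.32-fold and 5.20-fold and the 74.6 percentile. Hrg, the gene of histidine-rich glycoprotein, and Pros1, the gene of the protein C cofactor protein S, had weaker promoter peaks at the 48.0 and 8.93 percentiles. Serpinc1, which encodes antithrombin, had LSD1 peaks in its window and none at its promoter. Proc, which encodes protein C, had none in either.

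Among the 11 coagulation genes, 5 had an LSD1 promoter peak, or 45.5%, beside 37.6% of genes with an H3K4me2 promoter peak. The 3 fibrinogen chain genes, which lie together on chromosome 3, had peaks of similar rank, with Fgg at the 54.3 percentile, Fga at 54.2 and Fgb at 45.8. F12, the gene of factor XII, lay at the 42.6 percentile. F10, the gene of factor X, had the lowest-ranking promoter peak of the 58 genes at the 3.08 percentile, with 2.00-fold and 2.16-fold enrichment. Its window also held the highest-ranking peak of all, which lay downstream of the gene at 3.67-fold and 7.29-fold and the 96.9 percentile.

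Of the 12 apolipoprotein genes, 5 had an LSD1 promoter peak, or 41.7%, beside 37.6% of genes with an H3K4me2 promoter peak. Apob, which encodes the structural protein of very-low-density lipoprotein, Apoa1, the main protein of high-density lipoprotein, Apoe and Apoc1 each had 2 LSD1 promoter peaks. The higher-ranking of the 2 lay at the 75.5 percentile at Apoa1, 68.7 at Apob, 62.3 at Apoc1 and 52.2 at Apoe, and the single promoter peak of Apoa4 lay at 15.5. With 7 and 6 LSD1 peaks in the window, Apoc1 and Apoe had the most of the 58 genes, and because their windows overlap all 6 of Apoe were also counted for Apoc1.

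Among the carriers, Ambp, the gene of the precursor of alpha1-microglobulin and bikunin, reached the 78.9 percentile. Trf, which encodes the iron carrier transferrin, had 2 promoter peaks at the 57.5 and 55.5 percentiles. Ahsg, the gene of fetuin-A, had a promoter peak at 30.2 and 5 LSD1 peaks in its window. Alb, which encodes albumin, had promoter peaks on both sides of its start, at 2.82-fold and 1.89-fold (10.6 percentile) upstream and at 3.29-fold and 2.96-fold (46.1 percentile) downstream. Ttr, which encodes the thyroxine and retinol-binding protein carrier transthyretin, and Hp, which encodes the hemoglobin-binding haptoglobin, had no LSD1 promoter peak.

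The other promoter peaks were at Orm1, the acute phase gene of orosomucoid (74.3 percentile), C8a (70.6) and Itih2 (15.5). Saa1 and Saa2, which encode the acute phase protein serum amyloid A, had no LSD1 peak at the promoter but shared one between the genes at 6.11-fold and 3.92-fold and the 93.3 percentile. C3, the gene of the central complement protein, had a peak downstream at 4.34-fold and 5.34-fold and the 94.4 percentile, and Hp one at 3.73-fold and 5.84-fold and the 90.9 percentile. A promoter peak covered a start directly at 16 of the 24 genes.

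**Figure D1:**
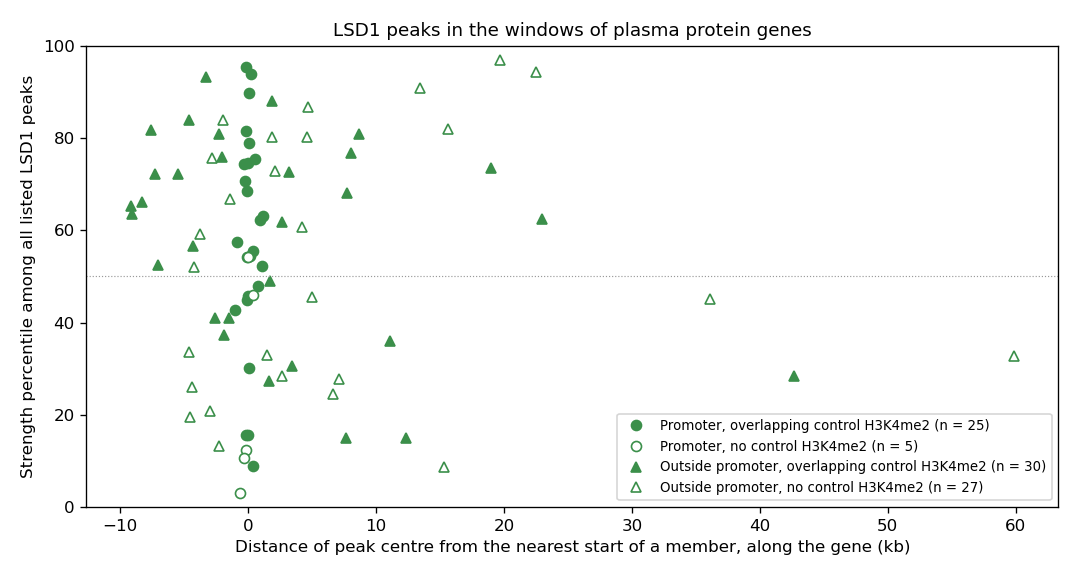
LSD1 peaks in the windows of the 58 plasma protein genes. Each of the 87 symbols is 1 peak, with the distance of its center from the nearest start of a plasma protein gene in kb (negative upstream) on the x axis and its strength percentile among all LSD1 entries on the y axis. Circles are promoter peaks, triangles other peaks, and filled symbols overlap control H3K4me2. Most peaks, 62 of 87, lie within 5 kb of a start, and high percentiles occur both at starts and downstream.

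The LSD1 peaks near plasma protein genes had a median percentile of 57.5, and 52 of 87 ranked above the median of all entries. In both libraries p was at or below 1e-05 for 9 of the 87 peaks and for 1699 of all 14584 entries. Under that threshold, the promoter peaks of Plg, Serpinf2, C8b and Ambp remained, or 4 of 58 genes beside 5.49% of all genes, and 11 genes kept a window peak beside 9.38% of all genes. Most of the 24 promoter calls rest on peaks with larger p-values.

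LSD1 and H3K4me2 overlapped at most of these promoter peaks. Of the 30 LSD1 peaks at promoters of the 58 genes, 25 overlapped a control H3K4me2 peak (83.3%) and 20 an LSD1-LKO peak (66.7%). For all 5113 LSD1 promoter peaks of the genome the shares were 91.7% and 90.2%. Outside the promoters, 30 of 57 LSD1 peaks overlapped control H3K4me2 and 28 LSD1-LKO H3K4me2, or 52.6% and 49.1%, beside 31.4% and 34.2% of all LSD1 peaks outside promoters. Both LSD1 promoter peaks of Alb lay clear of control H3K4me2.

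H3K4me2 marked nearly all plasma protein genes in both genotypes. A promoter peak was present at 55 of 58 genes in control and at 54 of 58 in LSD1-LKO, beside 58.8% and 58.9% of all genes. Afp, which encodes the fetal albumin relative alpha-fetoprotein, and Apom, the apolipoprotein that carries sphingosine-1-phosphate, had a promoter peak in control only. Alb had one in LSD1-LKO only, and Saa1 and Saa2 had none in either list. Among all genes with a promoter peak in either list, 4.99% had it in control only and 5.14% in LSD1-LKO only.

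Control H3K4me2 spread far beyond the promoter. Peaks in the windows covered a median of 6174 and 7142 bp per gene in the 2 control libraries and 4572 and 7456 bp in the 2 LSD1-LKO libraries, with first-listed values first. Over all 15878 genes with any H3K4me2 in the window, the medians were 2503 and 3163 bp in control and 2393 and 3471 bp in LSD1-LKO. The share of the window under peaks, averaged over the 2 libraries, had a median of 16.1% in control and 17.1% in LSD1-LKO at the 58 genes, against 5.83% and 6.10% over those genes. This share was 19.8% and 20.1% at the 10 hepatocyte marker genes and 13.2% and 14.2% at the 57 other plasma protein genes. A share above that of all marked genes was therefore not particular to the 58 genes. In each of the 4 libraries the median length at the 58 genes was higher than that of all marked genes.

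Coverage was followed within 5 kb of the 5′ end, and at 2 kb the excess over other genes was larger downstream than upstream. At the 5′ end itself, 56.9% and 77.6% of the 58 genes were inside a peak of the control libraries, beside 60.2% and 75.2% of 13563 other genes with promoter H3K4me2. At 2 kb into the gene, the shares were 65.5% and 69.0% of the 58 genes and 18.2% and 23.5% of the other genes. At 4 kb they were 25.9% and 32.8% against 6.96% and 9.30%. At 2 kb upstream of the 5′ end they were 15.5% and 29.3% against 6.08% and 8.03%. Among 4189 other marked genes with a CpG ratio below 0.6, 19.2% and 23.9% were covered at 2 kb, close to the other genes as a whole. The shares at 2 and 4 kb were not determined at the hepatocyte marker genes or the other plasma protein genes. These comparisons of shares were not tested.

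In LSD1-LKO liver the same extension was present, with 53.4% and 79.3% of the 58 genes covered at 2 kb into the gene and 27.6% and 50% at 4 kb. At the 5′ end itself, 36.2% and 63.8% were covered, both lower than in the control library of the same place in its list. This drop was not particular to the 58 genes. At the 57 other plasma protein genes described below, the share fell from 47.4% to 26.3% between the first-listed libraries. Between the second-listed libraries it fell from 70.2% to 59.6%. At the 10 hepatocyte marker genes it went from 20% to 0% and from 30% to 40%, respectively. For the other marked genes the shares at the 5′ end were 52.6% and 74.9%. Among the CpG-poor other genes, the control libraries covered the 5′ end at 43.9% and 56.5% and the LSD1-LKO libraries at 41.3% and 58.3%. LSD1 covered the 5′ end of 18.97% of the 58 genes, of 21.6% of the other genes and of 9.02% of the CpG-poor ones. At 2 kb upstream it covered 6.90% and 0.605%, and at 2 kb downstream 8.62% and 0.944%.

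**Figure D2:**
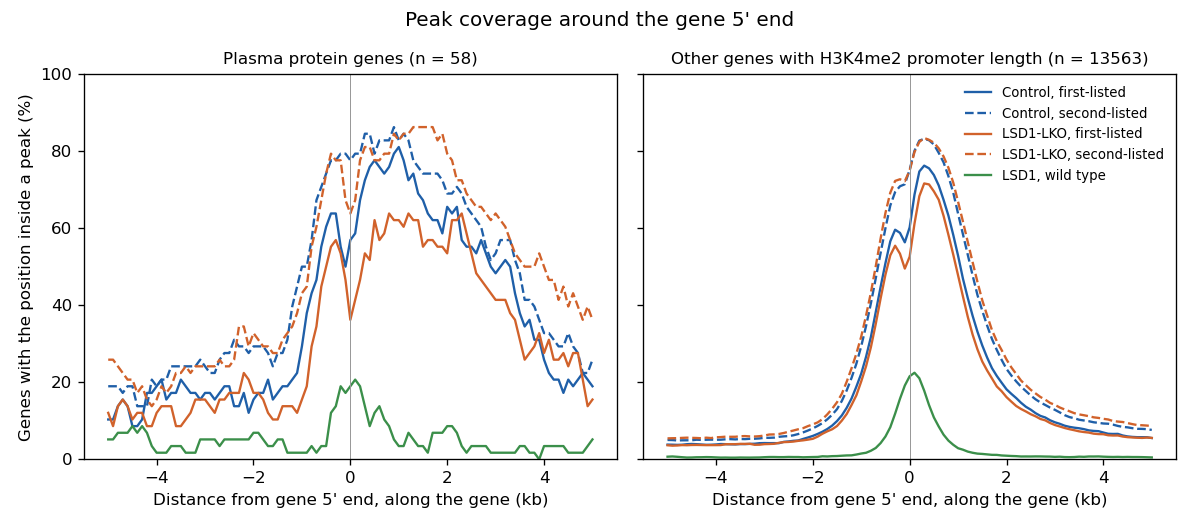
Share of genes whose position is inside a peak (y axis, %) against distance from the gene 5′ end along the gene (x axis, kb), for the 58 plasma protein genes and for 13563 other genes with promoter H3K4me2. Blue lines are the 2 control and orange lines the 2 LSD1-LKO H3K4me2 libraries, solid for first-listed and dashed for second-listed, and green is LSD1 in wild-type liver. H3K4me2 stays high to 2 kb and beyond at the plasma protein genes, whereas at the other genes it is down to between 16.1% and 25.9% there.

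H3K4me2 length was compared between genotypes gene by gene. A gene was called shorter or longer in LSD1-LKO only where both LSD1-LKO libraries lay on the same side of both control libraries. With 2 libraries a group, a two-sided exact permutation test cannot go below p = 0.333, so no single gene can pass a threshold of 0.05 and the calls are descriptive. In whole liver, fewer cells carrying the mark and less of it per cell cannot be told apart.

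At the promoter, 13 of 56 genes with any H3K4me2 length were shorter and 9 longer in LSD1-LKO, beside 17.2% shorter and 14.5% longer over 13619 genes. Across the window, 8 of 58 genes were shorter and 8 longer, beside 15.6% and 18.2% over 15878 genes. The window shares of the 58 genes, 13.8% each way, were below those of all genes, and the promoter shares of 56 genes were 23.2% and 16.1%. The median change over the 58 genes was -186 bp at the promoter and 46.8 bp in the window. Among genes with any promoter length it was -191 bp at the 56 plasma protein genes and -35 bp over all 13619. In the window it was 50 bp over all 15878 genes. Each change over the 58 genes was smaller than the pooled SD of the library medians, 362 and 1521 bp. That SD includes the difference between first-listed and second-listed libraries.

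The counts differed with the libraries that were set against each other. Between the first-listed libraries, the promoter was shorter in LSD1-LKO at 39 of 56 genes and longer at 17, beside 59.8% and 39.2% of all genes. Between the second-listed libraries it was shorter at 29 and longer at 23, beside 42% and 51.4%. The window was shorter at 38 of 58 genes and longer at 20 between first-listed libraries, beside 56.7% and 43.2%, but shorter at 22 and longer at 36 between second-listed libraries, beside 39.3% and 60.6%. At the promoter, shorter was the more frequent call in both pairs, whereas in the window the direction turned. Taking only genes with the same direction in both pairs, 21 of 56 promoters were shorter and 9 longer, beside 29.8% and 25.2% of all genes, and 19 of 58 windows were shorter and 17 longer, beside 31.1% and 35%. The former include Ttr, Serpinc1 and Apoa1, and the windows of Ttr, Serpinc1 and Apob were shorter in both pairs although their groups overlapped.

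Scaling each library to the same total covered length changed the split. At the promoter, 29 of 56 genes were then shorter and 7 longer, beside 28.7% and 12.1% of all genes. In the window, 23 of 58 were shorter and 12 longer, beside 32% and 23.9%. With only peaks at p at or below 1e-05 in both libraries, the window was shorter at 17 of 57 genes and longer at 5, beside 27.8% and 18.3%. Under scaling, all 13 shorter promoters and all 8 shorter windows were still called, while F10, Itih3 and Itih4 were no longer longer at the promoter nor F10, Fgg and Itih4 in the window. Scaling of this kind assumes equal total H3K4me2 in the 4 libraries, which these lists cannot show.

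**Figure D3:**
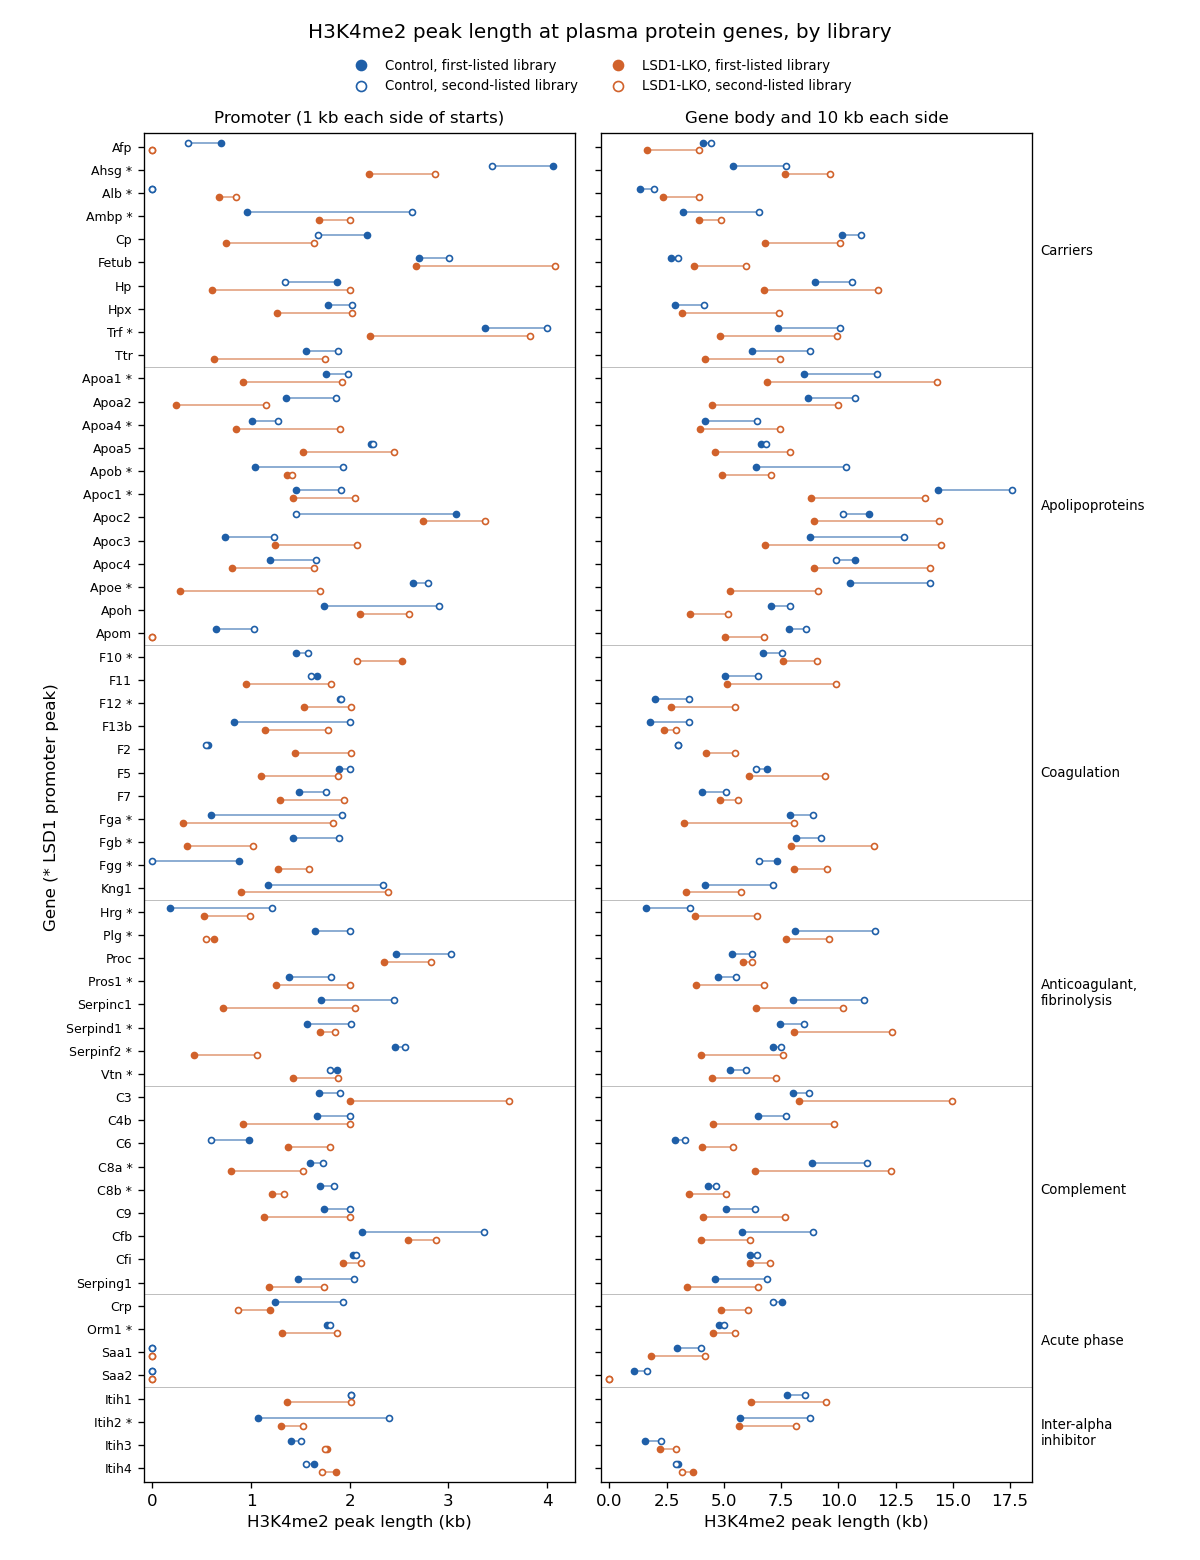
H3K4me2 peak length in kb (x axis) at the promoter and in the gene body with 10 kb on either side, for each of the 58 plasma protein genes grouped by role (y axis). Blue points are the 2 control libraries and orange points the 2 LSD1-LKO libraries, filled for first-listed and open for second-listed, each pair joined by a line, and an asterisk marks an LSD1 promoter peak. The genotypes overlap at most genes, and Apoc1 and Apoe have the longest control windows of the genes called shorter.

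Apoe and Apoc1 had the largest decreases in window length of the 58 genes. Apoe (ENSMUSG00000002985, chr7:19696109-19699188) encodes the remnant-clearing apolipoprotein E. Its window held 10489 and 13996 bp of H3K4me2 peaks in the control libraries and 5280 and 9121 bp in LSD1-LKO, or 12243 ± 2480 bp (SD, n = 2) and 7201 ± 2716 bp. Both LSD1-LKO values lay below both control values. Its promoter went the same way, from 2641 and 2791 bp in control to 277 and 1698 bp in LSD1-LKO.

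Apoc1, whose product modulates lipoprotein metabolism, had the longest control window of the 58 genes, with 14341 and 17581 bp in control and 8792 and 13765 bp in LSD1-LKO. The 2 genes share most of this stretch, so these are not separate observations. Their neighbors Apoc2 and Apoc4 did not follow. Apoc2, which encodes the activator of lipoprotein lipase, had 11341 and 10201 bp in control and 8917 and 14404 bp in LSD1-LKO, with overlapping groups. The difference between these neighbors was not tested.

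Among genes whose groups did not overlap, Apoh, Apom and Cp followed in size. The Apoh window held 7072 and 7890 bp in control and 3536 and 5169 bp in LSD1-LKO. The Apom window held 7826 and 8608 bp in control and 5056 and 6769 bp in LSD1-LKO, and its promoter 647 and 1030 bp in control and no peak in LSD1-LKO. The window of Cp, which encodes the copper-binding ferroxidase ceruloplasmin, held 10161 and 11001 bp in control and 6800 and 10088 bp in LSD1-LKO. Cp barely cleared the rule, since its higher LSD1-LKO value came within 73 bp of its lower control value.

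Crp, Afp and Saa2 completed the shorter group, with differences of -1869, -1488 and -1354 bp in mean window length. The window of Crp, the gene of C-reactive protein, is wide because its gene model in the annotation spans 134977 bp. At its promoter Afp had 695 and 364 bp in control and no peak in LSD1-LKO. Saa2 had 1071 and 1637 bp in its control window and no LSD1-LKO peak, while Saa1 next to it had 2957 and 3996 bp in control and 1832 and 4162 bp in LSD1-LKO. Neither Saa gene had a promoter peak in either H3K4me2 list.

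The window was longer in LSD1-LKO at Hrg, Fetub, Fgg, F2, C6, Alb, F10 and Itih4, and the F10 call rests on a gap of 6 bp. Hrg had the largest increase among them, with 1589 and 3539 bp in control and 3726 and 6439 bp in LSD1-LKO. Its neighbor Fetub, the gene of fetuin-B, a protease inhibitor, had 2706 and 3003 bp in control and 3714 and 5973 bp in LSD1-LKO. Fgg had 7302 and 6526 bp in control and 8069 and 9507 bp in LSD1-LKO. The windows of Hrg and Fetub are partly shared. Ahsg, in the same cluster, had overlapping groups, with 5396 and 7716 bp in control and 7656 and 9645 bp in LSD1-LKO, while its promoter was shorter, at 4059 and 3438 bp against 2198 and 2863 bp.

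F2, which encodes prothrombin, had nearly equal control windows of 3007 and 3012 bp and longer ones of 4212 and 5501 bp in LSD1-LKO. Its promoter held 561 and 539 bp in control and 1443 and 2008 bp in LSD1-LKO, the largest increase of the 58 genes. In control, its promoter held 1 peak, downstream of the start, and in LSD1-LKO it held 3, with 1 upstream. C6, which encodes a protein of the membrane attack complex, had 2866 and 3309 bp in control and 4053 and 5389 bp in LSD1-LKO, and its promoter was also longer.

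Alb (ENSMUSG00000029368, chr5:90460897-90476602) stood apart from the other carriers. Although albumin is the most abundant plasma protein, its window held only 1326 and 1935 bp of control H3K4me2 peaks, the second-lowest mean of the 58 genes after Saa2. In LSD1-LKO liver it held 2352 and 3907 bp, or 3130 ± 1100 bp (SD, n = 2) against 1631 ± 431 bp in control. Its promoter had no peak in the control list and 677 and 845 bp in LSD1-LKO. The LSD1-LKO promoter peaks were centered 943 bp upstream and 943 bp downstream of the start and ranked at the 3.61 and 42.6 percentiles of their list.

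Afp and Alb are adjacent and differed in direction, with less H3K4me2 at Afp and more at Alb in LSD1-LKO, each without overlap of the groups. The same was seen among the fibrinogen genes, where the promoter was shorter at Fgb and longer at Fgg. Fgb had 1424 and 1890 bp in control and 355 and 1023 bp in LSD1-LKO. Fgg had 876 and 0 bp in control and 1275 and 1591 bp in LSD1-LKO, and Fga overlapped with 593 and 1917 bp against 307 and 1826 bp. Whether neighbors differ from each other was not tested.

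The 4 genes whose LSD1 promoter peak passed p at or below 1e-05 in both libraries were Plg, Serpinf2, C8b and Ambp. The Plg promoter held 1645 and 2001 bp in control and 625 and 544 bp in LSD1-LKO, or 1823 ± 252 and 585 ± 57.3 bp (SD, n = 2). Serpinf2 had 2458 and 2555 bp in control and 419 and 1055 bp in LSD1-LKO, the largest decrease of the 58 genes. C8b had 1702 and 1836 bp in control and 1214 and 1336 bp in LSD1-LKO. Ambp had 962 and 2627 bp in control and 1685 and 2007 bp in LSD1-LKO. The promoter was shorter without overlap at Plg, Serpinf2 and C8b. At Ambp the groups overlapped with a slightly higher mean in LSD1-LKO. Of all marked genes with an LSD1 promoter peak of any listed p-value, 15% were shorter. The share among all genes with a peak at p at or below 1e-05 was not determined, so these 4 genes have no like background.

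Vtn, Apoa1, Serpind1 and Orm1 lay next in rank. Vtn had 1870 and 1799 bp in control and 1425 and 1876 bp in LSD1-LKO. Apoa1 had 1759 and 1979 bp against 915 and 1925 bp. At both genes the groups overlapped. Serpind1 (1562 and 2013 against 1702 and 1854 bp) and Orm1 (1770 and 1799 against 1310 and 1872 bp) also overlapped.

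The remaining genes with an LSD1 promoter peak varied in both directions. C8a was shorter, with 1599 and 1731 bp in control and 791 and 1524 bp in LSD1-LKO, and F10 longer, with 1454 and 1574 bp against 2531 and 2073 bp. Apob (1038 and 1936 against 1365 and 1410 bp), Trf (3369 and 4003 against 2206 and 3831 bp) and Apoc1 (1458 and 1908 against 1424 and 2057 bp) overlapped. So did Hrg (181 and 1209 against 519 and 992 bp), Pros1 (1385 and 1812 against 1250 and 2001 bp), F12 (1899 and 1912 against 1533 and 2015 bp), Apoa4 (1006 and 1270 against 848 and 1896 bp) and Itih2 (1072 and 2400 against 1306 and 1530 bp).

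In all, the promoter was shorter in LSD1-LKO at 7, longer at 3 and overlapping at 14 of the 24 genes with an LSD1 promoter peak. Over all genes with an LSD1 promoter peak and any promoter H3K4me2, 15% were shorter and 12.1% longer. Of the 34 without one, it was shorter at 6, longer at 6 and overlapping or unmarked at 22, beside 18.5% shorter and 15.9% longer over all marked genes without one. The median change was -186 bp in the former and -183 bp in the latter. The difference between the 24 and the 34 genes was not tested.

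Across the window, none of the 10 genes without an LSD1 window peak was longer in LSD1-LKO and 5 were shorter, namely Crp, Cp, Afp, Apoh and Apom. Over all genes without an LSD1 window peak, 19.7% were shorter and 21% longer. Of the 48 genes with an LSD1 window peak, 3 were shorter and 8 longer, or 6.25% and 16.7%, beside 12.5% and 16.2% of all genes with such a peak. All 8 plasma protein genes with a longer window had LSD1 in it. This was noticed in the data, involves 10 genes and was not tested.

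By role, the apolipoprotein genes had the most control H3K4me2 in the window, though not at the promoter, and 4 of the 8 shorter windows. Their windows held a median of 8590 and 10273 bp in control and 5168 and 9554 bp in LSD1-LKO, with 4 of 12 shorter and none longer, or 6 and 0 when libraries were scaled. Of the 4, Apoc1 and Apoe share most of their stretch. The windows of Apoc2 and Apoc4 also overlap it, and those of Apoa1, Apoa4 and Apoc3 overlap one another. Shared length therefore counts repeatedly in the medians of this role. The 11 coagulation genes had 5067 and 6506 bp in control and 4849 and 8076 bp in LSD1-LKO, with none shorter and 3 longer, or 2 and 3 when scaled. Among the 9 complement genes 1 was longer, and among the 8 anticoagulant and fibrinolysis genes 1 was longer, with none shorter in either role. When scaled, the complement genes had 3 shorter and 2 longer, and so did the anticoagulant and fibrinolysis genes. The shares over all genes were those given above for the window, 15.6% shorter and 18.2% longer, or 32% and 23.9% when scaled. The carriers had 2 shorter and 2 longer, the acute phase genes 2 shorter of 4, and the inter-alpha inhibitor family 1 longer of 4. When scaled, the carriers had 5 shorter and 4 longer and the acute phase genes 3 shorter. The inter-alpha inhibitor family then had 1 shorter and 1 longer.

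Several well-known plasma protein genes lay in the overlapping majority. The Ttr window held 6213 and 8770 bp in control and 4178 and 7460 bp in LSD1-LKO. Serpinc1 had 8038 and 11125 bp against 6398 and 10226 bp, Hp 8988 and 10576 bp against 6732 and 11735 bp, and Apoa1 8485 and 11703 bp against 6898 and 14301 bp. Apob, with 6426 and 10345 bp against 4932 and 7053 bp, and Fgb, with 8143 and 9229 bp against 7934 and 11544 bp, overlapped as well. At all 6 of these genes the groups overlapped.

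C3 and Apoc3 were longer at the promoter but not in the window as a whole. The C3 promoter held 1688 and 1898 bp in control and 2005 and 3610 bp in LSD1-LKO, and its window 8022 and 8736 bp against 8269 and 14951 bp. Apoc3, whose product inhibits lipoprotein lipase, had a promoter of 737 and 1236 bp in control and 1238 and 2072 bp in LSD1-LKO, and a window of 8784 and 12885 bp against 6809 and 14483 bp. The Apoc3 call rests on a gap of 2 bp between its groups.

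A second list of 57 other plasma protein genes was described for comparison. Of these, 18 had an LSD1 promoter peak and 43 an LSD1 window peak, and 51 and 53 had a promoter H3K4me2 peak in control and LSD1-LKO. Their windows held a median of 4017 and 5261 bp of H3K4me2 in control, lower than the 6174 and 7142 bp of the 58 genes. The 10 hepatocyte marker genes held 5835 and 7053 bp. In LSD1-LKO the promoter was shorter at 14 and longer at 9 of the 54 other plasma protein genes with any length, beside the 17.2% and 14.5% of all genes, and the window shorter at 6 and longer at 7 of 55, beside 15.6% and 18.2%. No difference between the lists was tested.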

How the data were processed

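ChIP-seq peak lists from mouse liver were analysed, 1 each for LSD1 in wild type and H3K4me2 in control and LSD1-LKO mice. The authors mapped reads to mm10 with Bowtie2, called narrow peaks per library with MACS2 and intersected the 2 libraries of a group with bedtools 2.25.0, as the submitters' processing notes and the methods state. Fold enrichment in the deposited lists is the authors' ratio of ChIP to control signal, and the deposited −log10 p-values and −log10 q-values are MACS output for each library, with no pooling. The 12 columns of integer scores and summit offsets were not used. The lists show the group of each column but not its replicate number.

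Peak positions were those of the first-listed library, with an overlap of at least 1 bp. H3K4me2 length was the number of promoter or window bases under each library's own merged peaks. Percentiles rank peaks within their own list by mean −log10 p-value. The 58 genes, their roles and the marker lists were chosen with earlier results of these data known. Genes given in full were those with an LSD1 promoter peak, the 5 longest control windows, genes without an H3K4me2 promoter peak in either list, the 5 largest decreases and 5 largest increases in window length among non-overlapping genes, and Alb, Ttr, Apoa1, Apob, Fgb, Serpinc1, C3 and Hp. Promoter sequences came from RefSeq, and all 45 matched entries were equal to the GRCm38 genome on their strand.

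No test across genes was made. The exact permutation test over libraries and its smallest p are named in the text. The depth of the libraries is unknown, so no counting interval could be given. Interval code was tested on simulated data. Alternatives covered the p and q thresholds, promoter and window width, transcript start, overlap rule, single libraries, scaling to covered length and loci in place of genes. Comparisons between libraries of the same place in the list, between genes with and without an LSD1 peak, and with CpG-poor genes were added after seeing the data. Python 3.11.15, numpy 2.4.6, pandas 2.3.3, scipy 1.17.1, pysam 0.24.0 and matplotlib 3.10.9 were used.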

Additional observations from a re-analysis of the deposited data

How the results depend on the processing

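The 10 counts and medians for the 58 genes were recomputed under 14 alternatives, giving 86 values. Of these, 58 stayed within 1.5 times the count, or within the spread of the library medians, and 28 did not. That spread was 1521 bp in the window and 362 bp at the promoter and includes the difference between first-listed and second-listed libraries. All medians stayed within it, also where their sign turned, so this rule says little about their stability. The threshold of the peaks mattered most for LSD1. With p at or below 1e-05 in both libraries, LSD1 promoter genes went from 24 to 4, LSD1 window genes from 48 to 11 and LSD1-LKO H3K4me2 promoter genes from 54 to 35, while shorter windows went from 8 to 17 and longer ones from 8 to 5. With q at or below 0.05 the values were 5 LSD1 promoter genes, 15 LSD1 window genes, 13 shorter and 3 longer windows and 5 longer promoters. The gene body alone left 29 LSD1 window genes, and flanks of 50 kb left 3 shorter and 1 longer windows. Promoters of 0.5 kb on either side left 5 longer ones. Counting loci in place of genes gave 4 shorter and 2 longer windows and 8 shorter and 4 longer promoters. Scaling to covered length gave 23 shorter windows and 29 shorter promoters. With 1 library per genotype, the ranges were 22 to 38 shorter and 20 to 36 longer windows, and 29 to 39 shorter and 17 to 23 longer promoters, where a call needs no agreement between libraries. The causes of the other shifts were not tested. The median window change ranged from -958 to 624.5 bp and the promoter change from -313 to -11.5 bp. Counts of control promoter peaks stayed within 1.5 times 55 under every alternative run. No paired analysis was possible because the lists carry no replicate numbers, and libraries of the same place in the lists were compared only as a description. Library depth is unknown, and peaks seen in 1 library alone are not in the lists.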
